A study of Mus musculus with 15 samples.

Results

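The 49 chromatin regulator genes described here code for enzymes and complex subunits that read, write or remove histone marks or move nucleosomes. They were taken by symbol from known complexes and families and fall into 2 acetyl readers, 7 acetyltransferases, 5 deacetylases, 10 NuRD genes, 11 SWI/SNF genes, 7 Polycomb genes and 7 methyl-lysine enzymes. All 49 were found among the 21000 protein-coding mouse genes with a curated RefSeq transcript. For each gene, peaks of H3K27ac were counted in the promoter, meaning 2 kb either side of a transcription start site, and in the whole gene with 10 kb either side. H3K27ac, the acetyl mark on lysine 27 of histone H3, lies on nucleosomes at active promoters and enhancers.

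The series held 15 CUT&RUN libraries, in which an antibody-tethered nuclease releases the DNA beside a histone mark. They came from mouse tumors that model fusion-positive rhabdomyosarcoma, a soft tissue cancer with muscle features. All mice carried Cdkn2a(Flox/Flox), Pax(3P3F/P3F) and R26-tdTom as the labels spell them, where the second is the Pax3 P3Fm/P3Fm allele of the study, so that Cre removed Cdkn2a, turned on the fusion gene PAX3-FOXO1 and marked the cells with tdTomato. Cre came from Myf6, a gene of the muscle lineage, in MCP tumors and from Tek, a gene of endothelial cells, in TCP tumors. The labels assign 6 libraries to H3K27ac in MCP, 3 to H3K27ac in TCP, and 3 of each tumor type to the IgG background. The values below come from 1 peak list, that of the MCP H3K27ac library numbered 5 in the labels, and the other libraries were not used here. For the sort of the dissociated tumor the labels name a live/dead dye alone, while the study also describes a tdTomato gate, which would remove cells without Cre activity. Whether that gate was set for this library is not given in the sources used here. The library has no replicate here, so no test between genes was made, and intervals below cover counting error only.

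Lysine 27 of histone H3 can carry an acetyl or a methyl group but not both at once. EP300 and CREBBP add the acetyl group, deacetylases such as those in the NuRD complex take it off, and proteins with a bromodomain bind acetylated tails. Polycomb complex 2 methylates the same lysine, the KDM6 enzymes remove that methyl mark, and SWI/SNF complexes open chromatin at enhancers and promoters. Most of these genes are used in many cell types, and their promoters are typically rich in CpG dinucleotides.

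A promoter peak was present at 45 of the 49 genes, or 91.8%, where 45.6% of all protein-coding genes had one. Among the 49, every acetyl reader, acetyltransferase, NuRD, SWI/SNF and methyl-lysine gene had a promoter peak, as did 6 of 7 Polycomb genes and 2 of 5 deacetylase genes. The 4 genes with none were Hdac1, Hdac8 and Sirt1 among the deacetylases and Bmi1 among the Polycomb genes. In the gene or within 10 kb, 48 of 49 had a peak against 63.2% of all genes, and Hdac1 was the exception. Of the 152 promoter peaks of these genes, 90 had a -log10 q of at least 5, a share not counted over all promoter peaks. Such a peak was present at 36 of the 49 promoters, against 37.9% of all genes. Among the strongest 25% of all peaks, 28 of 49 promoters had a peak against 29.3%.

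The share with a promoter peak rose with CpG content over all genes, from 3.52% in the lowest decile of promoters by CpG count (decile 1) to 72.6% in the highest (decile 10). CpG was counted within 500 bp of each start site, and the highest value of a gene was taken. Of the 49 chromatin regulators, 29 lay in decile 10, 11 in decile 9 and 3 in decile 8. In decile 10, 27 of the 29 had a promoter peak, and Sirt1 and Bmi1 were the ones without. If each chromatin regulator had the share of its own CpG decile, 69.3% of them would have a promoter peak, beside the 91.8% that did. Over deciles 8 to 10 together, 41 of 43 chromatin regulators had a promoter peak, against 71.2% of all genes there. This is a description, since the genes were chosen as a group, with earlier results of these data known, and no test was made. Of 64 further subunits of the same complexes and families, counted below, 73.4% had a promoter peak.

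**Figure D1:**
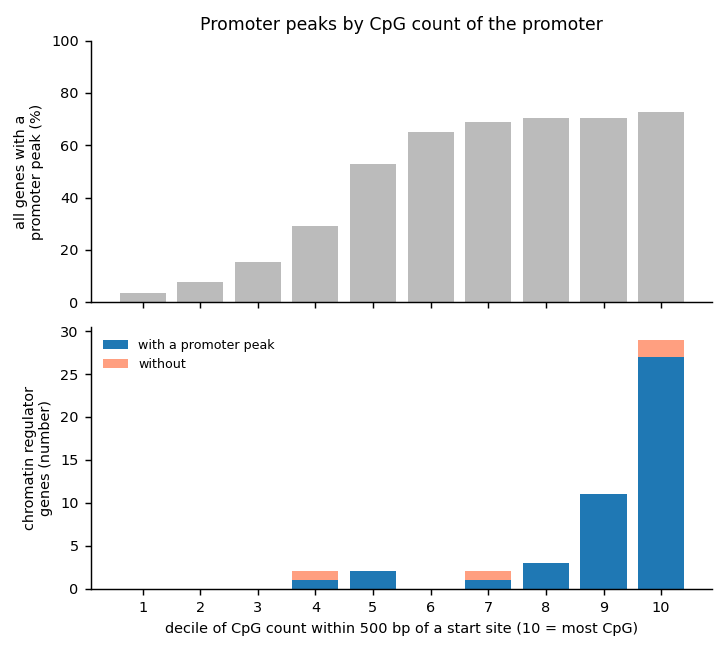
The upper bars give the percent of all protein-coding genes with a promoter peak in each decile of promoters by CpG count, and the lower bars give the number of chromatin regulator genes in that decile, with and without a promoter peak. The upper bars climb from 3.52% to 72.6%, while 29 of the 49 chromatin regulators sit in the decile with most CpG and 27 of these had a peak.

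Sequences of 6 promoter windows are given to show that CpG-rich letters stood both at the promoter with the highest fold enrichment that has a sequence in the RefSeq table and at promoters with no peak. Each runs 5′ to 3′ on the strand of the gene, from 250 bases before to 50 bases after the start site, on GRCm38.p6, and CG dinucleotides are in capitals. Brd9 had the second highest promoter fold enrichment of the 45, Dot1l had the lowest, and Sirt1, Bmi1 and Hdac8 had no promoter peak. Kat2b is shown at its downstream start site because that site had many peaks beside few CpG. By the start site with most CpG, as used for the deciles, Kat2b had 82 and lay in decile 9.
Brd9, chr13:73937561-73937860, plus strand: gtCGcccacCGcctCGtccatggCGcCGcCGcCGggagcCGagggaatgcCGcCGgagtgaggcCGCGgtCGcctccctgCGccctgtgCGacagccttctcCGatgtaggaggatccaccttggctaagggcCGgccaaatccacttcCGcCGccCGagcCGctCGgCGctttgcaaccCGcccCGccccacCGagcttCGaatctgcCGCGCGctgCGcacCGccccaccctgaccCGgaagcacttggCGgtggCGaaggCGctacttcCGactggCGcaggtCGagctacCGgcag
Dot1l, chr10:80754953-80755252, plus strand: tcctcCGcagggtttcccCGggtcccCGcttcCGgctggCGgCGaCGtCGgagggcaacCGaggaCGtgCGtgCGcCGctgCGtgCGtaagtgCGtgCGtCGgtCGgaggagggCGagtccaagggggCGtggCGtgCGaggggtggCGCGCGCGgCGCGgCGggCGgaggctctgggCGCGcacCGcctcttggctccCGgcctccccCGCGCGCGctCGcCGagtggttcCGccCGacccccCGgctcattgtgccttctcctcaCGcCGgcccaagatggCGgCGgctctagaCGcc
Sirt1, chr10:63338986-63339285, minus strand: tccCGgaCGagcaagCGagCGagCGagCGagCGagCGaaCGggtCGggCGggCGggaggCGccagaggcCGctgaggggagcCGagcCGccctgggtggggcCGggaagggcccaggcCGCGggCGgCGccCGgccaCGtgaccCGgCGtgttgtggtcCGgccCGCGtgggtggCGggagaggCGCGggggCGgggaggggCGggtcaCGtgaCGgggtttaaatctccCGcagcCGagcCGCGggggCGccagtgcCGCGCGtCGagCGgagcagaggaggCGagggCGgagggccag
Bmi1, chr2:18676768-18677067, plus strand: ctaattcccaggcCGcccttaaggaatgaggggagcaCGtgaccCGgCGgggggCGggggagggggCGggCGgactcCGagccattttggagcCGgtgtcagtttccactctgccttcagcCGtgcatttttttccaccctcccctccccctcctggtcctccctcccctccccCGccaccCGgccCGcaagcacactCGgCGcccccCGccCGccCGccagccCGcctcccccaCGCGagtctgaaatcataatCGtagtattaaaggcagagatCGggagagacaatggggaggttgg
Hdac8, chrX:102505109-102505408, minus strand: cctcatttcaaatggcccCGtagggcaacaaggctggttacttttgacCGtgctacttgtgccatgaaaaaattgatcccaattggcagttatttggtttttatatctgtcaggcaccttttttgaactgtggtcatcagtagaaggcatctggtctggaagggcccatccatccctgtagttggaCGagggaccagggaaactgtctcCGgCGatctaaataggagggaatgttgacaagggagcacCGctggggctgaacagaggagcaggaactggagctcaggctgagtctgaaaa
Kat2b, chr17:53583876-53584175, plus strand: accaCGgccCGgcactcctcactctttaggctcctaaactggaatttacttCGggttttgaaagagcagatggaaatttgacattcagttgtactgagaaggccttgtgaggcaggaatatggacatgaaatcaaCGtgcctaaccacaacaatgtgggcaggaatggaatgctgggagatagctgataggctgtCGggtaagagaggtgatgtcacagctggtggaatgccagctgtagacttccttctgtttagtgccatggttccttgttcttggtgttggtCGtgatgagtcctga

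The windows held 40 CG for Brd9, 49 for Dot1l, 47 for Sirt1, 23 for Bmi1, 6 for Hdac8 and 6 for Kat2b. The median was 30 over the 51 windows of the 42 chromatin regulators in the table and 7 over all 32851 windows. The letters GGGCGG, a binding sequence of SP and KLF factors, searched on both strands, stood in 41 of the 51 windows (80.4%) and in 35.7% of all windows. The Sirt1 and Bmi1 windows held it, as did those of Brd9 and Dot1l. The NRF1 letters TGCGCATGC stood in 4 windows, those of Brd2, Smarca4, Smarcb1 and Smarcc1 (7.84% against 1.52% of all), and the TATA letters TATAAA in 2, those of Hdac8 and Mbd3 (3.92% against 13.6%). CCAAT, the NF-Y letters, stood in 15 windows (29.4% against 37.4%), the E-box CACGTG in 5 (9.80% against 7.15%), and the CRE letters TGACGTCA in none, against 1.79% of all. CCGGAAGT, the ETS letters, stood in 2 (3.92% against 3.89%), and AAGATGGCG, the YY1 letters, in 2 (3.92% against 1.403%). The last of these stood at Brd2 and Dot1l. A match of letters shows no binding. The shares were not compared among windows of equal CG count, and several of the motifs hold CG themselves. Genes with more than 1 start site gave several windows, some of which overlap.

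The strength of a peak is given as its fold enrichment, the height of fragments at the summit over the local background, each with 1 added. Over the 45 genes the strongest promoter peak had a median fold enrichment of 6.94, with a range of 2.90 to 12.54. Over all 9569 genes with a promoter peak the median was 7.24 and the middle 50% ran from 5.65 to 9.47. The height of these peaks was thus close to that of all genes. In a bulk library, a mark in fewer cells and a weaker mark in every cell cannot be told apart. The number of fragments behind each summit was small, and for 41 of the 45 genes the 95% counting interval of the fold enrichment held the median of all genes. The intervals of Arid2 and Brd9 lay above that median, and those of Dot1l and Smarcc2 lay below it. By class the median was 8.21 for SWI/SNF, 8.02 for the acetyl readers, 6.94 for methyl-lysine enzymes, 6.73 for Polycomb, 6.30 for NuRD, 5.64 for acetyltransferases and 5.43 for the 2 deacetylases with a peak. The ranges of the classes overlapped, and those of the deacetylases and the readers met at 6.08.

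**Figure D2:**
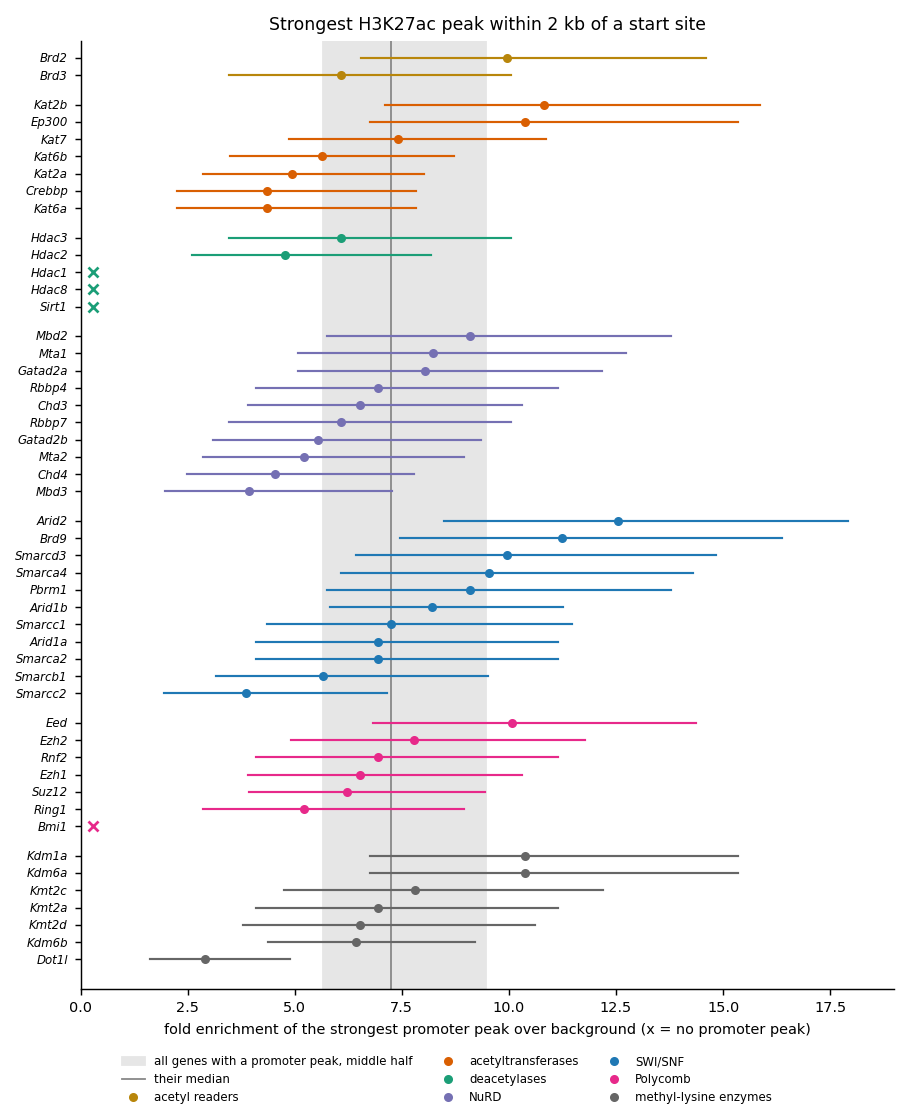
Each point is the fold enrichment over background of a gene's strongest promoter peak, the line is its 95% counting interval, and a cross marks a gene with no promoter peak. The grey band from 5.65 to 9.47 and the grey line at 7.24 are the middle 50% and the median of all genes with a promoter peak; 41 of the 45 intervals cross that line.

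The acetyl readers are the BET proteins BRD2 and BRD3, which bind acetylated histone tails and help transcription to proceed. Brd2 had 7 peaks, all in its promoter windows, around 3 annotated start sites, with fold enrichments of 3.12 to 9.96. A start of Brd2 was the nearest for 5 of them. Those at 8.31 and 3.12 lay in an intron of the neighbouring H2-DMa and nearer to its start. The strongest Brd2 peak, chr17:34119974-34120234, had 24 fragments at the summit (95% counting interval of the fold enrichment 6.54 to 14.6). Brd3 had 2 promoter peaks, the stronger at 6.08 with 13 fragments (interval 3.47 to 10.1), and 12 more peaks in the gene or within 10 kb. The interval of Brd3 overlapped that of Brd2, so the order between the readers was not resolved at this depth.

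Among the acetyltransferases, Ep300 and Crebbp code for the closely related enzymes that write H3K27ac itself. Ep300 had 4 promoter peaks, the strongest at chr15:81586698-81588096, in the first 2 kb of the gene, with a fold enrichment of 10.4 from 23 fragments (interval 6.76 to 15.3). Crebbp had 1 promoter peak, with a fold enrichment of 4.36 from 9 fragments (interval 2.26 to 7.84). The intervals of this pair overlapped between 6.76 and 7.84, so the higher level at Ep300 was at the edge of what the counts resolve. Kat2a and Kat2b, the GCN5 and PCAF acetyltransferases, differed in both the number of peaks and the length they spread over. Kat2b had 32 peaks in the gene and its flanks, 9 of them at a promoter, and its strongest promoter peak reached 10.8 from 24 fragments (interval 7.11 to 15.9). Kat2a, a much shorter gene, had 9 peaks in the gene and its flanks, at 32.4 per 100 kb beside 25.4 for Kat2b, and none of the 9 had its start as the nearest. Kat2a had 2 promoter peaks, the stronger at 4.93 from 14 fragments (interval 2.86 to 8.02), and that summit lay 409 bp from the start site of Hspb9, nearer than to the start of Kat2a at 1871 bp. Kat6a and Kat6b, MYST family enzymes, had 2 promoter peaks each, with strongest fold enrichments of 4.36 and 5.64. Kat7, another MYST enzyme also known as HBO1, had 7 promoter peaks, the strongest at 7.41 from 24 fragments, nearer to the start of the neighbouring Gm11520.

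Of the 5 deacetylase genes among the 49, 2 had a promoter peak. Of 11 further deacetylase genes, counted in the same way, 8 had one (Hdac4, Hdac5, Hdac6, Hdac7, Hdac10, Sirt2, Sirt3 and Sirt6), so that over both lists 10 of 16 did. Hdac1, whose product is the catalytic subunit of NuRD, Sin3 and CoREST complexes together with HDAC2, had no peak in its 26.5 kb or within 10 kb either side (chr4:129516104-129542646). The nearest summit to its start site lay 14.1 kb away, although 131 peaks lay within 500 kb of the start. Its paralog Hdac2 had 1 promoter peak of 79 bp, 930 bp into the gene, with a fold enrichment of 4.77 from 11 fragments (interval 2.61 to 8.19), and 1 further peak. Hdac3, the enzyme of the NCoR and SMRT corepressors, had 1 promoter peak at 6.08 from 13 fragments (interval 3.47 to 10.1). A stronger peak, at 13.4 from 30 fragments, lay within 10 kb of Hdac3 but in an intron of Diaph1. Hdac8, on chromosome X (chrX:102284638-102505381), had 5 peaks, all inside the gene and of at most 4.79, and the nearest lay 121 kb from its start. Chromosome X held 9.96 peaks per Mb, the fewest of the autosomes and X, and the other chromatin regulators there, Rbbp7 and Kdm6a, had promoter peaks. Sirt1, an NAD-dependent deacetylase (chr10:63319005-63339035), had 2 peaks, the stronger at 4.79 from 10 fragments in an exon 17.2 kb from the start. Within 500 kb of the start lay 32 peaks at Sirt1, 14 at Bmi1 and 10 at Hdac8. None of the promoter windows of Hdac1, Hdac8, Sirt1 and Bmi1 crossed a stretch where a peak number is absent from the list.

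NuRD couples a nucleosome remodeler with histone deacetylases and is known to restrain enhancers. All 10 NuRD genes among the 49 had promoter peaks, 32 in all, and with Hdac1 and Hdac2 counted in the complex 11 of 12 did. Of the further subunits counted below, Chd5 had none, while Mta3, Cdk2ap1 and Zmynd8 had promoter peaks. Mbd2, a methyl-CpG binding protein, had the highest fold enrichment of the class, 9.10 from 20 fragments (interval 5.75 to 13.8). Its paralog Mbd3 had the lowest, 3.93 from 8 fragments (interval 1.97 to 7.27). Mta1 and Mta2, scaffold subunits, reached 8.24 (interval 5.08 to 12.7) and 5.22 (interval 2.85 to 8.96), and the summit at Mta2 lay nearer to the start of Gm10353. Gatad2a reached 8.04 and Gatad2b 5.55, with 5 promoter peaks each. The remodeler genes Chd3 and Chd4 reached 6.51 and 4.54. Chd3 had 7 promoter peaks on both sides of its start, and Chd4 had 2. Rbbp4 and Rbbp7, histone chaperones shared with Polycomb complex 2, reached 6.94 and 6.08. For each of these 5 pairs the counting intervals overlapped.

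SWI/SNF complexes use an ATPase to slide or evict nucleosomes, and 11 of 11 of their genes among the 49 had a promoter peak. Of the further subunits counted below, Actl6b, Dpf1, Dpf3 and Bcl7a had none. Brd7, Actl6a, Smarce1, Smarcd1, Smarcd2, Dpf2, Phf10, Bcl7b, Bcl7c and Ss18 had promoter peaks. The highest value of the 49 was at Arid2, a subunit of the PBAF form, with a fold enrichment of 12.54 from 28 fragments at chr15:96288423-96288535, 945 bp into the gene (interval 8.50 to 17.9), at the 92.9 percentile of all genes with a promoter peak. Brd9, which marks the noncanonical form of the complex, followed with 11.2 from 25 fragments (interval 7.45 to 16.4), 375 bp into the gene; Trip13 starts within the same window. Smarcd3, the BAF60C subunit known from muscle and heart, reached 9.96 from 22 fragments. The ATPase genes Smarca4 and Smarca2 reached 9.53 (interval 6.08 to 14.3) and 6.94 (interval 4.10 to 11.1). Smarca2 had 8 peaks at its start sites and none elsewhere in its 173 kb or the flanks. Pbrm1, the polybromo subunit of PBAF, reached 9.10 from 20 fragments. The BAF subunits Arid1a and Arid1b reached 6.94 and 8.21, the latter from 36 fragments over a background of 3.00. Smarcc1 reached 7.24 and its paralog Smarcc2 3.86 from 8 fragments (interval 1.94 to 7.14), the lowest of the class. Smarcb1, the subunit whose loss defines rhabdoid tumors, had 1 promoter peak, at 5.65 from 12 fragments (interval 3.16 to 9.51).

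Of the Polycomb genes, the 4 listed genes of Polycomb complex 2 all had promoter peaks. Eed, which binds trimethylated lysine 27, had the highest fold enrichment, 10.1 from 28 fragments at chr7:89981064-89981179, 161 bp upstream of the start (interval 6.82 to 14.4), and 6 promoter peaks. Ezh2, the methyltransferase of dividing cells, reached 7.77 from 20 fragments (interval 4.91 to 11.8) with 5 promoter peaks, and Ezh1 reached 6.51 from 16 fragments (interval 3.91 to 10.3) with 2. The strongest Ezh2 summit lay in an exon of F830010H11Rik, a gene that starts beside it. Suz12 had 3 peaks, all at the promoter, the strongest at 6.23. Of the ubiquitin ligases of Polycomb complex 1, Rnf2 reached 6.94 and Ring1 5.22 from 11 fragments (interval 2.85 to 8.96), the lowest of the class. Bmi1, a partner of these ligases (chr2:18677018-18686629), had no peak within 2 kb of its curated start site. It had a peak of 9.96 from 22 fragments 4.05 kb upstream, in an intron of Commd3 and 528 bp from the start of that gene. A weaker peak of 4.36 lay inside Bmi1. With start sites from GENCODE, which lists more transcripts, Bmi1 gained a promoter peak and the count was 46 of 49, while the share over all genes was 48.2%.

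Among the methyl-lysine enzymes, Kdm1a, the LSD1 demethylase that works with HDAC1 and HDAC2, and Kdm6a, which removes methyl groups from lysine 27, both reached 10.4 from 23 fragments (interval 6.76 to 15.3). Kdm6a lies on chromosome X and had 5 promoter peaks spanning both sides of the start. Kdm6b, the other lysine 27 demethylase, also had 5 promoter peaks, the strongest at 6.44 from 28 fragments over a background of 3.00 (interval 4.36 to 9.20). Kmt2c and Kmt2d, which place monomethyl marks on lysine 4 at enhancers, reached 7.80 and 6.51, with overlapping intervals. Kmt2a, a methyltransferase of promoters, reached 6.94. Dot1l, which methylates lysine 79, had the lowest promoter value of the 45 genes, 2.90 from 12 fragments over a background of 3.00 (interval 1.62 to 4.89). It stood at the 0.12 percentile of all genes with a promoter peak.

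The promoter summits lay to both sides of the start sites. Over the 152 promoter peaks of the 49 genes, 83 summits were downstream and the median distance was 840.5 bp. Over all genes the median distance was 691 bp and 59.3% of summits were downstream, beside 54.6% here. Within 250 bp of the start lay 10.5% of the summits here and 14.8% over all genes. The bin from 500 to 750 bp upstream held 20 summits, or 13.2%, the most of any bin here, and 7.61% over all genes. The strongest peak of each gene had its summit downstream at 27 of 45 genes, against 63.0% over all genes. For 7 of the 45, namely Ezh2, Kat7, Rbbp4, Mta2, Ring1, Kat2a and Chd4, that summit lay nearer to the start site of another gene. Those peaks cannot be given to either gene from the list alone. At Chd4 and Ring1 the other gene was a microRNA, Mir7045 within Chd4 and Mir219a-1 near Ring1. Whether the annotated start of either microRNA is a promoter was not tested. For 42 of the 45, at least 1 promoter peak had the gene's own start as the nearest. Neither the 7 nor the 42 has a share over all genes beside it, since none was counted.

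**Figure D3:**
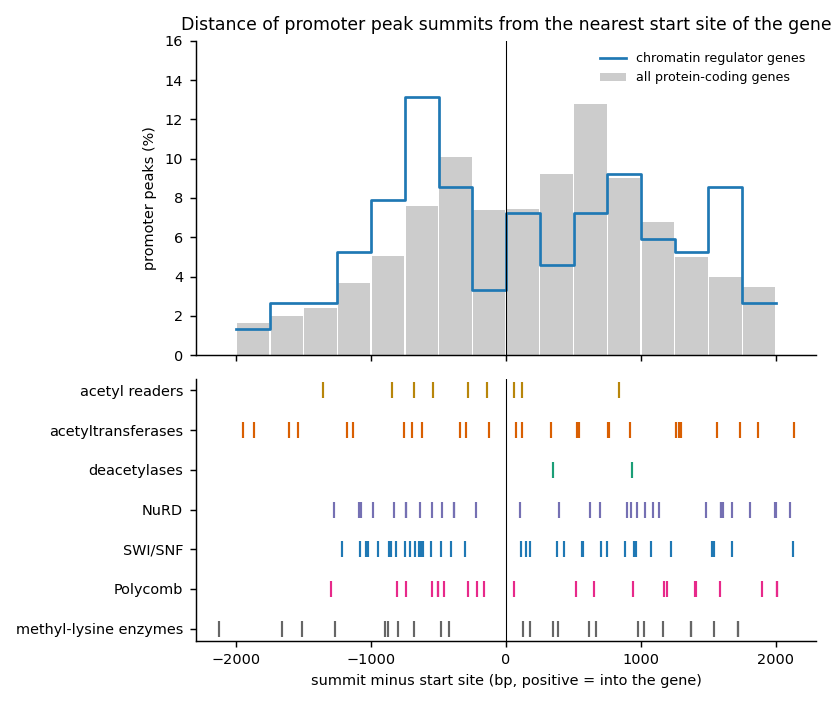
The upper panel gives the percent of promoter peaks by distance of the summit from the gene's nearest start site, in bins of 250 bp, for the chromatin regulators (line) and all genes (bars); the lower panel marks each summit by class. The line is highest from 500 to 750 bp upstream (13.2%) and lowest from 1750 to 2000 bp upstream (1.32%), and it dips in the 250 bp just upstream of the start (3.29%).

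Beyond the promoter, peaks were frequent across many of these genes. The 49 genes with their flanks held 630 peaks, 490 of them in introns, 49 in exons and 91 outside curated transcripts. The median was 14.0 peaks per 100 kb, beside 4.44 over all genes, 6.32 over genes whose span lay in the middle 50% of theirs (46.2 to 108 kb) and 13.7 over genes with a promoter peak. The last of these was close to the value of the chromatin regulators. NuRD genes had the highest class median, 22.6 per 100 kb, and deacetylases the lowest, 4.20. The medians of the others were 19.9 for the readers, 14.9 for methyl-lysine enzymes, 14.0 for acetyltransferases, 12.6 for Polycomb and 12.0 for SWI/SNF. The values of the classes overlapped, from 5.17 to 39.6 over the NuRD genes and from 0 to 23.7 over the 5 deacetylases. The further deacetylase genes, not in that median, ran from 0 at Hdac11 to 41.3 at Sirt7. Chromosomes 1, 6, 11 and 15 had the most peaks per Mb, and 15 of the genes lay on these or on X. On the other chromosomes the median of the remaining 34 genes was 14.4 per 100 kb, beside 4.28 over all genes there, and 31 of them had a promoter peak, against 45.3%.

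**Figure D4:**
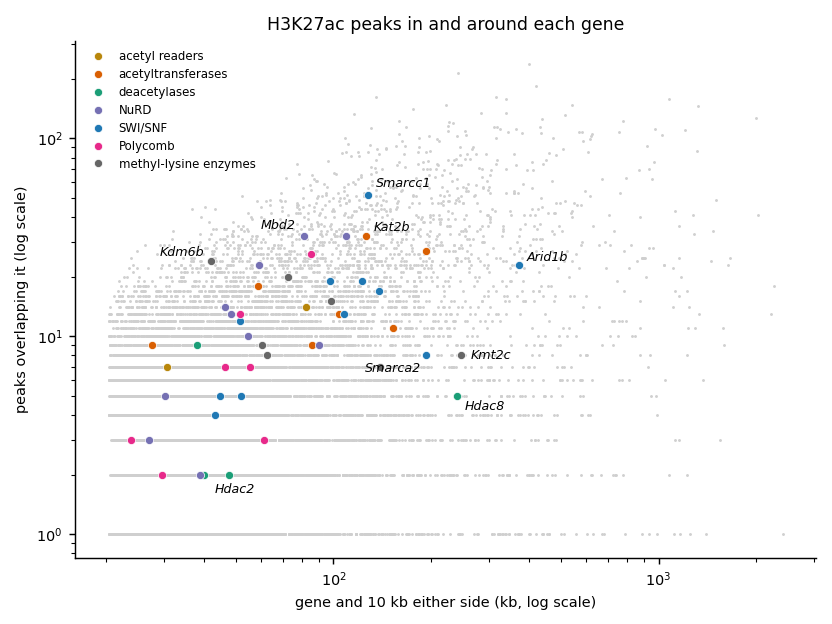
Each point is a gene, with its length including 10 kb either side on the x axis (kb, log scale) and the number of peaks overlapping it on the y axis (log scale); grey points are all genes with at least 1 peak and coloured points are the chromatin regulators by class. Smarcc1 is the highest coloured point, with 52 peaks, while Smarca2, with 8, and Hdac8, with 5, are low for their length; Hdac1 had no peak and is not drawn.

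Of the 49 genes, 10 had 20 or more peaks in the gene or its flanks. The share of all genes with as many was not counted. The median span with flanks was 60.4 kb for the 49 genes and 37.7 kb over all genes, and a longer span can hold more peaks. Smarcc1, the BAF155 scaffold of SWI/SNF, had 52 peaks, 50 of them inside the gene, which covered 13.0% of it and its flanks. Its strongest peak, chr9:110167493-110168769, lay in an intron 35.7 kb from the start, with a fold enrichment of 12.4 from 41 fragments (interval 9.01 to 16.7), above the 7.24 of its promoter. Kat2b, Mbd2 and Gatad2a had 32 each. At Kat2b 31 lay inside the gene, most of them in its first 30 kb, and the strongest reached 13.0 from 29 fragments (chr17:53587392-53588426, interval 8.85 to 18.4). At Mbd2 29 lay inside the gene, and at Gatad2a 22 did. Kat6b had 27, Ezh2 26, Kdm6b 24, Mta1 and Arid1b 23 each and Kdm1a 20. Kdm6b had the densest peaks of the 49, at 57.3 per 100 kb, and Arid1b, the longest gene at 353 kb, had 6.16.

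Peaks near a gene need not belong to it. Of the 630 peaks, 414 had a start site of the chromatin regulator as the nearest start of any gene. The share over all genes was not counted. The gene's own start was the nearest for 39 of 52 peaks at Smarcc1, 32 of 32 at Kat2b and at Mbd2, and 20 of 20 at Kdm1a. It was the nearest for 8 of 23 at Mta1 and 16 of 32 at Gatad2a. The highest peak at any of the 49 loci, at Mta1, had a fold enrichment of 20.4 from 49 fragments (interval 15.2 to 26.8). It lay beyond the end of Mta1 and 4678 bp from the start of Crip1. At Kmt2d the strongest peak, at 16.8, lay in Prkag1, and at Smarcc2 the strongest, at 12.7, lay in Myl6b, 908 bp from the start of Myl6. In 26 of the 45 genes with a promoter peak, a peak away from the promoter was higher than every promoter peak. At Kdm1a the highest of each kind were equal, at 10.4 from 23 fragments. The share over all genes was not counted, so the 26 cannot be read as particular to these genes. Several of these higher peaks lay within 2 kb of another gene's start, at Crebbp, Kat2a, Mta2, Smarcc2, Smarcd3, Ring1, Kmt2d and Dot1l. Those at Smarcc1 and Kat2b had the gene's own start as the nearest. At Brd2, Rbbp7, Smarca2 and Suz12 every peak was at the promoter.

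**Figure D5:**
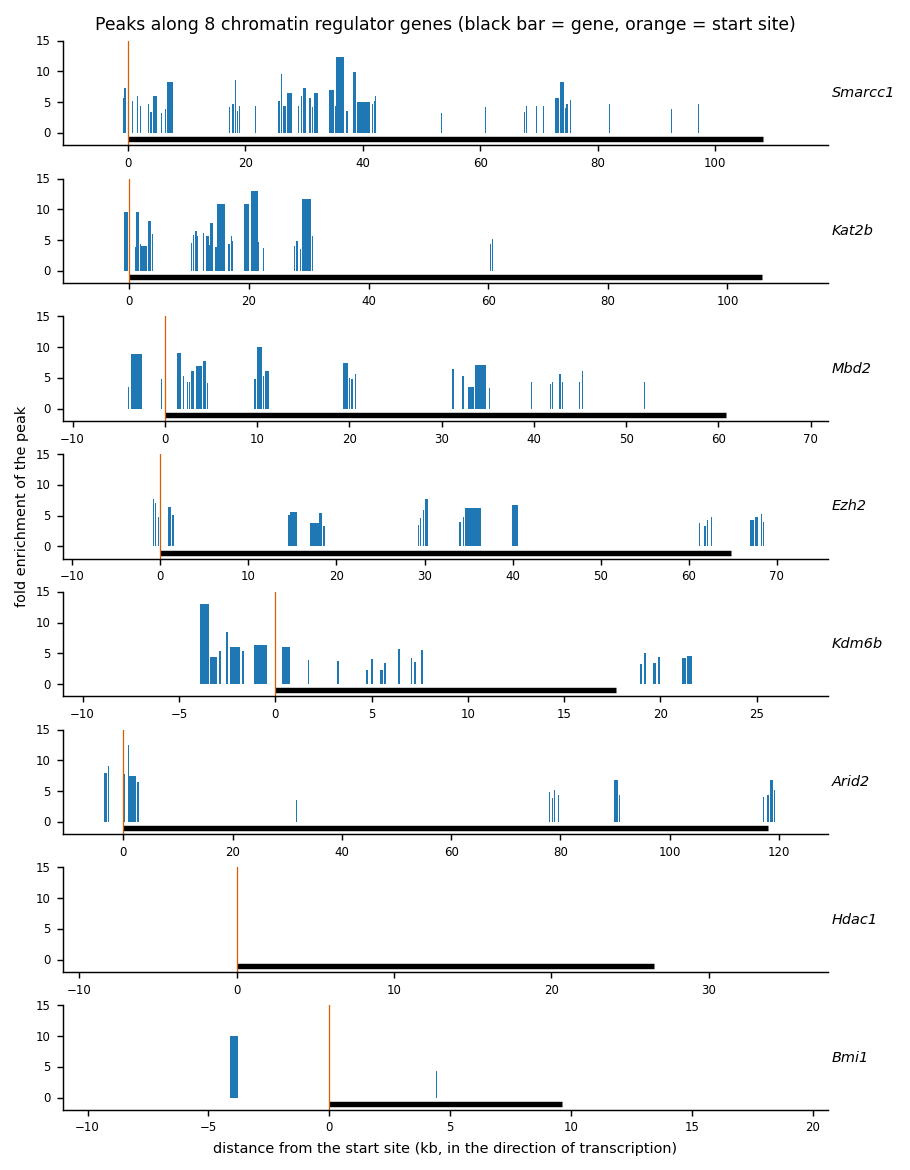
Each row is a gene from its first curated start site (orange line) along its length (black bar), with distance in kb on the x axis, and blue blocks are peaks at their fold enrichment on the y axis; the narrowest peaks are drawn wider than they are so that they show. Peaks stand all along Smarcc1 and Mbd2 and in the first 30 kb of Kat2b, while Hdac1 has none. The peak 4.05 kb upstream of Bmi1 lies 528 bp from the start of Commd3.

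Stretches of dense peaks away from start sites were found by joining peaks within the default stitching distance of ROSE, the tool the study used, leaving out those within 2 kb of a start, and ranking the clusters by the sum of their peak scores. Of 19484 clusters 855 lay above the point where the ranked curve reached a slope of 1. These overlapped 4 of the 49 chromatin regulators, where 3.8% of all genes were overlapped. Smarcc1 had the highest, rank 194, with 48 peaks over 95.1 kb (chr9:110134094-110229204). The others were Mbd2 at rank 481 (29 peaks over 56.0 kb), Kat2b at rank 510 (21 peaks over 28.7 kb) and Gatad2a at rank 729 (16 peaks over 21.0 kb). Joining within 5 kb also gave 4 genes, with Kdm1a in place of Mbd2, and joining within 20 kb gave 6, with Mta1 and Smarca4 added, against 5.38% of all genes. With peaks at start sites kept, Smarcc1 and Kat2b remained and Chd3, Kdm6b and Mta2 entered. The letters of muscle and AP-1 factors were searched in 151 bases around the summits of the 391 distal peaks at these genes. CAGCTG, an E-box bound by MYOD, stood in 9.21% of them and in 7.90% of all 92636 distal summits, and TGACTCA, the AP-1 letters, in 3.84% and 4.11%. These shares were near those of all distal peaks, as were CAGGTG, another E-box, at 7.67% and 9.86%, TGTGGT, the RUNX letters, at 15.1% and 13.1%, and GGAATG, the TEAD letters, at 8.70% and 8.71%.

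Another 64 subunits of the same complexes and families were counted in the same way. Of these 47, or 73.4%, had a promoter peak, with a median fold enrichment of 6.94, and their median density was 10.8 peaks per 100 kb. The highest was at Smarce1, the BAF57 subunit, at 20.7, followed by Sirt6 at 14.9, Ss18, the BAF subunit fused in synovial sarcoma, at 14.3, and Hdac10 at 13.2. The 17 without a promoter peak included Brdt, known from the testis, and Chd5, Actl6b and Dpf1, known mainly from neurons, as well as Dpf3, a subunit of heart and muscle. The chromobox genes Cbx2, Cbx6 and Cbx8 of Polycomb complex 1 had no peak in the gene or within 10 kb, while Cbx7 had promoter peaks. The others were Hdac9, Hdac11, Sirt7, Bcl7a, Pcgf1, Pcgf6, Phf19, Kdm1b and Uty. Uty lies on chromosome Y, which held 1 peak in all, so its lack of a peak says little about the gene. Hdac9 had 25 peaks away from its start and Sirt7 had 11.

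For the label of the tumor, 1 of 12 myogenic marker genes, Myf6, had a promoter peak. So did 0 of 8 endothelial markers and, at Cd68, 1 of 6 immune markers, against 45.6% of all genes. Myod1, Myog and Des had no peak in the gene or within 10 kb, so the markers do not by themselves bear out the muscle label. Counted in the gene or within 10 kb, 6 of 12 myogenic markers had a peak, 6 of 8 endothelial markers and 3 of 6 immune markers, against 63.2% of all genes. The most were 13 peaks at Myf6, 14 at Tek and 16 at Cd68, while Kdr and Cldn5 of the endothelial markers had none. The part of these other cells in the results above was not tested.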

How the data were processed

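Nuclei of sorted tumor cells were profiled by CUT&RUN, and 1 peak list was used. Per the labels, BWA, SAMtools and MACS2 and the builds mm10 and dm6 were named; the methods of the study name bowtie, mm10 and an early MACS with an IgG library as background, so which steps made the list is not certain. The deposited columns are a peak score (the whole part of 10 times the -log10 q in 100% of peaks), a fold enrichment ratio over local background, -log10 p, -log10 q and a summit offset in bp. The highest q was 0.0471. The list holds 122375 peaks, and 584 numbers below the highest peak number are absent from it.

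Genes and start sites came from RefSeq (GRCm38.p6, the coordinates of mm10), with transcripts whose accessions begin NM or NR, giving 31166 start sites and 21000 protein-coding genes; promoters were 2 kb either side. Whole fragments at each summit were solved from the deposited fold enrichment and -log10 p with a scale of 0.884, which matched 99.98% of peaks within 0.01 (4.20% with a scale 3% off); 96.7% had a single solution, and the lowest background was 1.05 fragments. The total depth is not known here. Intervals are exact Poisson at 95%, with the background taken as fixed. Counts were tested on simulated peaks with known answers. With 1 library no replicates exist, so values are descriptions beside all genes, and no p-value was computed. Values were described in full for members with no promoter peak, for the 2 highest and the lowest of each class, for the 10 with most peaks, for those in a dense cluster and for paralog pairs. The genes, lists and alternatives were chosen with earlier results of these data known. The motifs at distal peaks were chosen after the peaks were counted. Some genes of the wider lists are not reported here. Promoter sequences are RefSeq's, and 7 of the 49 genes had none in that table. Python 3, numpy, pandas, scipy and pysam were used.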

Additional observations from a re-analysis of the deposited data

How the results depend on the processing

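No paired analysis was possible because a single library was analysed. Of 67 values recomputed under other settings, 53 stayed close to the value reported, meaning within 1.5 times for a count and within the 95% order-statistic interval for a median. Against all genes, 2 values changed sides: the median percentile of promoter strength went from 45.9 to 55.7 with fold enrichment times width summed over the promoter peaks, and the strongest summit lay downstream at 30 of 45 genes (66.7% against 65.7% of all) with the 5′ most start site, beside 27 of 45 (against 63.0%). With the strongest 25% of the peaks alone, promoter peaks were present at 28 of 49 genes, at 1 acetyl reader, 3 acetyltransferases, 0 deacetylases and 5 NuRD genes, and the median density was 3.38 per 100 kb (0 over all genes). With a -log10 q of at least 5, 4 acetyltransferases and 1 deacetylase had a promoter peak, and the median density was 6.52 per 100 kb (1.82 over all genes). Without chromosomes 1, 6, 11, 15 and X, fewer genes were counted: 4 of 4 acetyltransferases, 2 of 3 Polycomb genes and 4 of 4 methyl-lysine enzymes had a promoter peak. In promoter windows from 150 bases before the start, the E-box stood in 3 windows and the TATA letters in 0. A 1 kb promoter window left 41 genes with a peak (43.5% of all genes) and lost Kat6b, Mbd3, Rbbp7 and Smarcc2. Most peaks rest on few fragments (median 12 at these genes, and 84.6% under 20), so a gene without a peak may carry signal below the threshold, and order among neighbouring genes was mostly not resolved.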
